A study of Mus musculus with 59 samples.

Results

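The 10 genes described here make, break down or sense histamine, arginine and the polyamines. They were taken by symbol, whatever their values, from tables of 21706 genes, and each of the 10 symbols had 1 row that passed the filter on low counts in every tissue. RNA was sequenced from 59 uterine samples of 29 mated female mice of about 2 to 6 months. Knockout females (epiERa-/-) were Esr1f/-Wnt7aCre/+ and control females were Esr1f/-. Both genotypes thus carried 1 null and 1 floxed allele of Esr1, the gene of oestrogen receptor alpha, and only the knockouts carried the Cre, whose own effect and that of the deletion cannot be told apart. Wnt7aCre acts in uterine epithelium, so stroma and muscle were to keep the floxed allele. Females were mated with wild-type stud males and taken at D3.5 or at D0.5, the day of the vaginal plug, and littermates of 1 genotype were split between the days.

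Luminal epithelium (LE) was scraped off after dispase digestion and held 6 knockout and 4 control libraries at D3.5, and 7 knockout and 9 control libraries at D0.5. Digested uterus (DU), a piece kept before scraping, held 3 knockout and 3 control libraries at D3.5, and 3 knockout and 4 control libraries at D0.5. Undigested whole uterus (U) held 5 knockout and 5 control libraries at D3.5, and 4 knockout and 6 control libraries at D0.5. Each library of a group came from another mouse. The study asked what epithelial oestrogen receptor alpha contributes to gene expression before implantation.

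Histamine is made from histidine by histidine decarboxylase (Hdc), is oxidised outside cells by diamine oxidase (Aoc1), which also oxidises the polyamine putrescine, and acts through receptors that include Hrh1, coupled to calcium release, and Hrh2, coupled to cyclic AMP. Arginase splits arginine into urea and ornithine, with Arg1 in the cytosol and Arg2 in mitochondria. Ornithine decarboxylase (Odc1) turns ornithine into putrescine, spermidine synthase (Srm) and spermine synthase (Sms) extend it, and spermidine/spermine acetyltransferase (Sat1) starts the way back. In the mouse uterus, epithelial Hdc is known to be induced by progesterone before implantation, and polyamine synthesis is known for its part in implantation and the decidua.

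The sequences just upstream of 3 of the genes whose levels moved with genotype or day are shown, because oestrogen and progesterone receptors bind DNA at known motifs. RefSeq promoter windows of build GRCm38.p6 were matched for 7 of the 10 genes and not for Arg1, Arg2 and Srm. Only the 250 bases before each start site are printed, 5′ to 3′ on the gene's strand, with matches in capitals. The motifs searched on both strands were GGTCA, the core of the oestrogen response element, and TGTTCT, that of the progesterone response element. The full elements, in which the motif is preceded or followed by its inverted repeat across a gap of 3 bases, were searched as well and overlap the short motifs. The files used build GRCm39, and no coordinate of theirs enters here.
Hdc at chr2:126618679-126618928, minus strand: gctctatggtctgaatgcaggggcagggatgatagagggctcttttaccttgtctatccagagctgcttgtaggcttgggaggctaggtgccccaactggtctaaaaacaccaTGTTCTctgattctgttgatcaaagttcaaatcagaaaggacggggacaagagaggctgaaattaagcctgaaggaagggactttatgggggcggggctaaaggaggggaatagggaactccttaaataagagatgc
Aoc1, first start, at chr6:48895005-48895254, plus strand: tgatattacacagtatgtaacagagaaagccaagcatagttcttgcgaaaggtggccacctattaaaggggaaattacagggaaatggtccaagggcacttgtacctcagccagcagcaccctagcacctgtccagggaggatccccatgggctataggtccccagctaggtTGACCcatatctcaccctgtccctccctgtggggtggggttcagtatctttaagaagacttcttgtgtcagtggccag
Aoc1, second start, at chr6:48904736-48904985, plus strand: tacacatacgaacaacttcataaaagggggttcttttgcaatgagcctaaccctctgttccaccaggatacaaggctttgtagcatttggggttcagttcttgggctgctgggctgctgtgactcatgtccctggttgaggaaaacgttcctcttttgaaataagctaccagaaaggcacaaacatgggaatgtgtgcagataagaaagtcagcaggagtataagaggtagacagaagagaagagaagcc
Sat1 at chrX:155216450-155216699, minus strand: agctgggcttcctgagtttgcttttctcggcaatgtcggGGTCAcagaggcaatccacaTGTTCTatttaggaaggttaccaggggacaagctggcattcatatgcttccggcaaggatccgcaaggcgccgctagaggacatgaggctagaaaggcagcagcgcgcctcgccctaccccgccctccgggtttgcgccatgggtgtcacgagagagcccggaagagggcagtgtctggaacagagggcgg
Hdc held 1 TGTTCT, the first Aoc1 window 1 GGTCA (read as TGACC on the printed strand), the second neither, and Sat1 1 of each. Among the windows not printed, 1 of 4 Hrh1 windows held 1 TGTTCT and another 1 GGTCA, 1 of 2 Sms windows held 2 GGTCA, and neither motif was in the 2 Hrh2 windows or that of Odc1. Of 32851 promoter windows of this length in the mouse genome 35.2% held GGTCA and 16.1% held TGTTCT. The full elements occurred in 0.0639% and 0.00913% of all windows and in none of those of the 7 genes. A match describes the letters only, and nothing about receptor binding was measured.

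Esr1 was checked first, as CPM, the count scaled by the TMM library size within each tissue. Its mean was 59.7 CPM in knockout and 127 CPM in control LE at D3.5, and 47.3 against 192 CPM at D0.5, with no overlap on either day. In DU the means were 162 against 215 CPM at D3.5 and 145 against 229 CPM at D0.5. In U they were 152 against 173 CPM at D3.5 and 121 against 194 CPM at D0.5. The U library labelled knockout 33 held 212 CPM, above the 135 to 195 CPM of the 5 controls at D3.5. The knockout median there, 148 CPM, also lay within the control range, and U includes the stroma and muscle that were to keep the floxed allele. Directions drawn from U at D3.5 include library 33, and whether its label is right was not tested. Total counts per library ran from 11.3 to 108 M, with a median of 19.5 M. In LE at D3.5 the libraries of knockout mice 35, 36 and 37 stood apart from the other 3 in earlier results of these data, and values without them are given below. LE held its epithelial markers (Epcam, Krt8 and 5 more) at a summed 2838 CPM or more in every library, and all 7 were above U. It also held stroma markers (Dcn, Col1a1 and others), at a summed 827 to 4259 CPM in knockout and 509 to 5729 CPM in control at D0.5. At D3.5 these sums were 711 to 2894 and 1593 to 4220 CPM. All 7 stroma markers were lower in LE than in U, and 0 of 7 were called in knockout against control LE on either day.

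A gene was called at an edgeR quasi-likelihood adjusted p under 0.05 over all genes tested. In knockout against control LE at D0.5, 5 of the 10 genes were called, where 23.6% of all genes tested were, with 3 higher (10.9% of all) and 2 lower (12.6% of all). In LE at D3.5, 2 were called, both lower, where 13.5% of all genes were called, 7.79% higher and 5.7% lower. In DU at D0.5, 4 were called (8.06% of all), with 1 higher (3.89%) and 3 lower (4.17%). In DU at D3.5, 1 was called, lower, where 0.574% of all genes were called and 0.457% were lower. In U at D0.5, 5 were called (4.98% of all), with 2 higher (2.02%) and 3 lower (2.96%). In U at D3.5 edgeR called none of the 10 and 3 of 16232 genes (0.0185% of all), where 3 of the 10 and 682 of all had an unadjusted p under 0.05. DESeq2 called 1 of the 10 and 78 of all genes there, and limma voom 0 and 1439. Aoc1 and Arg1 were lower and Hdc was higher in knockout at D0.5 in LE, DU and U alike.

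**Figure D1:**
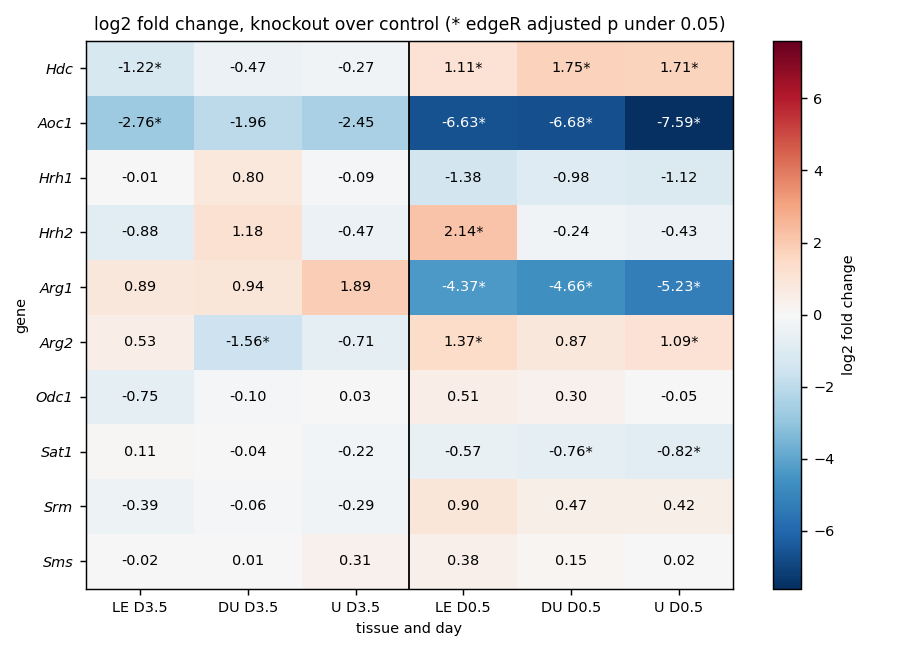
Log2 fold change, knockout over control, of the 10 genes (rows) in the 6 combinations of day and tissue (columns, D3.5 left of the line and D0.5 right of it). Red is higher and blue lower in knockout, and an asterisk marks an edgeR adjusted p under 0.05; at D0.5 Aoc1 lies between -6.63 and -7.59 and Arg1 between -4.37 and -5.23 in the 3 tissues.

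Hdc, the histamine-forming enzyme, was higher in knockout than in control at D0.5 in each tissue, and lower in knockout LE at D3.5. In LE at D0.5 its lowest, median and highest values were 304, 347 and 946 CPM in 7 knockout libraries, against 63.0, 211 and 359 CPM in 9 control libraries. The groups overlapped through control library 9, which lay above 4 of the knockouts. The log2 fold change was 1.11 ± 0.28 (SE, adjusted p = 0.00501).
In U at D0.5 Hdc stood at 301, 407, 274 and 460 CPM in knockout libraries, against 38.9, 123 and 136 CPM (lowest, median and highest of 6) in control libraries. All 4 knockout values lay above all 6 controls, at 3.27-fold (log2 1.71 ± 0.30, adjusted p = 0.00179). In DU at D0.5 it stood at 251, 187 and 447 CPM in knockout and at 33.8, 108, 93.7 and 117 CPM in control libraries, again without overlap (log2 1.75 ± 0.38, adjusted p = 0.0150). Without knockout library 27, the highest, the DU call was lost (log2 1.32, adjusted p = 0.0697), and it was also lost when only these 2 groups were fitted (adjusted p = 0.0648).

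The neutrophil markers moved with Hdc at D0.5. In LE all 8 tested of 9 (S100a8, S100a9, Cxcr2 and others) were higher in knockout, with a summed level of 943 to 3508 CPM against 3.64 to 403 CPM in control, and none of the 9 was at 0 in all libraries of either group. The sum was 1240 to 3045 against 80.9 to 639 CPM in DU and 1586 to 3056 against 75.0 to 960 CPM in U, with 5 of 8 tested markers higher in each. Macrophage markers summed to 48.9 to 99.4 CPM in knockout LE and 10.9 to 87.7 CPM in control LE at D0.5, with 5 of 7 tested higher. In DU their sum was 634 to 796 CPM in knockout and 586 to 1053 CPM in control, with 0 of 8 called. In U it was 422 to 840 against 590 to 1358 CPM, with 0 of 8 higher and 1 lower. The part of these cells in the Hdc result was not tested. Mast cells also make histamine, and their 8 markers other than Kit summed to 0.477 to 2.65 CPM in knockout LE and 0.103 to 3.35 CPM in control LE at D0.5, with none of the 6 tested called. That sum was 6.05 to 37.3 against 5.42 to 40.6 CPM in DU and 8.82 to 66.2 against 6.22 to 42.0 CPM in U. With Kit it was 10.8 to 35.9 against 7.45 to 32.3 CPM in LE. In DU it was then 50.8 to 78.1 against 53.0 to 92.3 CPM, and in U 54.1 to 87.9 against 24.8 to 83.6 CPM. In bulk tissue fewer cells of a type and less RNA per cell cannot be told apart.

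At D3.5 Hdc had the highest mean TPM of the 10 genes in LE. In CPM it stood at 450, 1008 and 1977 CPM (lowest, median and highest of 6) in knockout LE, against 2704, 2355, 2630 and 2251 CPM in the 4 control libraries. Every knockout library lay below every control, at 43.0% of the control mean (log2 -1.22 ± 0.36, adjusted p = 0.0232). This call was lost without control library 11, without control library 15 or without knockout library 36 (adjusted p = 0.0516 to 0.0566), and without mice 35, 36 and 37 (log2 -0.94, adjusted p = 0.206). At that time the neutrophil sum was 3.26 to 17.5 CPM in knockout and 2.12 to 8.28 CPM in control LE. Mast cell markers other than Kit summed to 0.509 to 2.72 CPM in knockout and 0.921 to 10.6 CPM in control LE. With Kit these sums were 31.5 to 131 and 39.0 to 178 CPM. Tpsab1, Fcer1a and Ms4a2 were at 0 in all control libraries, and Tpsab1 in all knockout libraries too. None of the tested markers of either list was called, and their part in the Hdc result was not tested. In DU at D3.5 Hdc was at 146, 141 and 162 CPM in knockout and 127, 222 and 273 CPM in control libraries. In U at D3.5 it was at 177, 172, 221, 235 and 308 CPM in knockout and 213, 202, 154, 328 and 446 CPM in control libraries. Both overlapped, and neither difference passed (log2 -0.47 and -0.27).

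Aoc1, the enzyme that removes histamine and putrescine, did not exceed 2.36 CPM in any knockout library at D0.5, where control libraries held 50.6 CPM or more. In LE it stood at 0.892, 1.69 and 2.36 CPM (lowest, median and highest of 7) in knockout, against 60.5, 159 and 345 CPM of 9 control libraries. The groups lay far apart, the knockout mean being 0.998% of the control mean (log2 -6.63 ± 0.42, adjusted p = 3.41e-11). In DU its values were 0.648, 0.983 and 0.470 CPM in knockout and 50.6, 59.8, 108 and 75.0 CPM in control libraries (log2 -6.68 ± 0.39, adjusted p = 9.67e-07). In U they were 1.52, 0.484, 0.0485 and 0.153 CPM in knockout, against 61.1, 89.3 and 161 CPM (lowest, median and highest of 6) in control libraries (log2 -7.59 ± 0.74, adjusted p = 3.80e-06). No knockout library of any tissue reached the lowest control of its tissue at D0.5. At D0.5 the 7 epithelial markers summed to 2838 to 5066 CPM in knockout LE against 6223 to 12646 CPM in control LE, and 4 of them were called lower. In DU the sums were 1546 to 1677 against 1958 to 4380 CPM with 2 lower, and in U 1325 to 1804 against 2188 to 7253 CPM with 3 lower. Gland markers (Foxa2, Prss29, Spink1 and Cxcl15) summed to 30.1 to 116 CPM in knockout and 0.870 to 24.0 CPM in control LE at D0.5, and to 54.4 to 166 against 3.01 to 7.89 CPM at D3.5, with 3 of 3 tested higher in knockout on each day. In DU at D0.5 the gland sum was 15.2 to 68.8 CPM in knockout and 10.2 to 23.3 CPM in control, with 2 of 3 tested higher. In U at D0.5 it was 16.0 to 83.8 against 6.72 to 20.2 CPM, with 2 of 4 higher, and at D3.5 0 were called in DU or U. The part of the epithelial and gland shares in the LE, DU and U results was not tested.

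At D3.5 Aoc1 was low in both genotypes and lower in knockout LE. It stood at 0.153, 0.779 and 1.25 CPM (lowest, median and highest of 6) in knockout and at 3.62, 3.76, 4.28 and 9.71 CPM in control libraries. The groups did not overlap (log2 -2.76 ± 0.45, adjusted p = 0.000119), and without mice 35, 36 and 37 the value was -3.53 (adjusted p = 0.000526). With limma voom the call was lost (adjusted p = 0.0899). In DU at D3.5 Aoc1 was at 0.515, 0.143 and 0.166 CPM in knockout and 1.03, 1.15 and 0.994 CPM in control libraries, without overlap but not past the threshold with edgeR (log2 -1.96, adjusted p = 0.124), which it passed with DESeq2 (adjusted p = 0.00641). In U at D3.5 it was at 0.284, 0.511, 0, 0 and 0.114 CPM in knockout and 0.731, 0.561, 0.473, 0.791 and 1.89 CPM in control libraries (log2 -2.45, adjusted p = 0.521, and -3.22 with adjusted p = 0.117 without library 33).

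**Figure D2:**
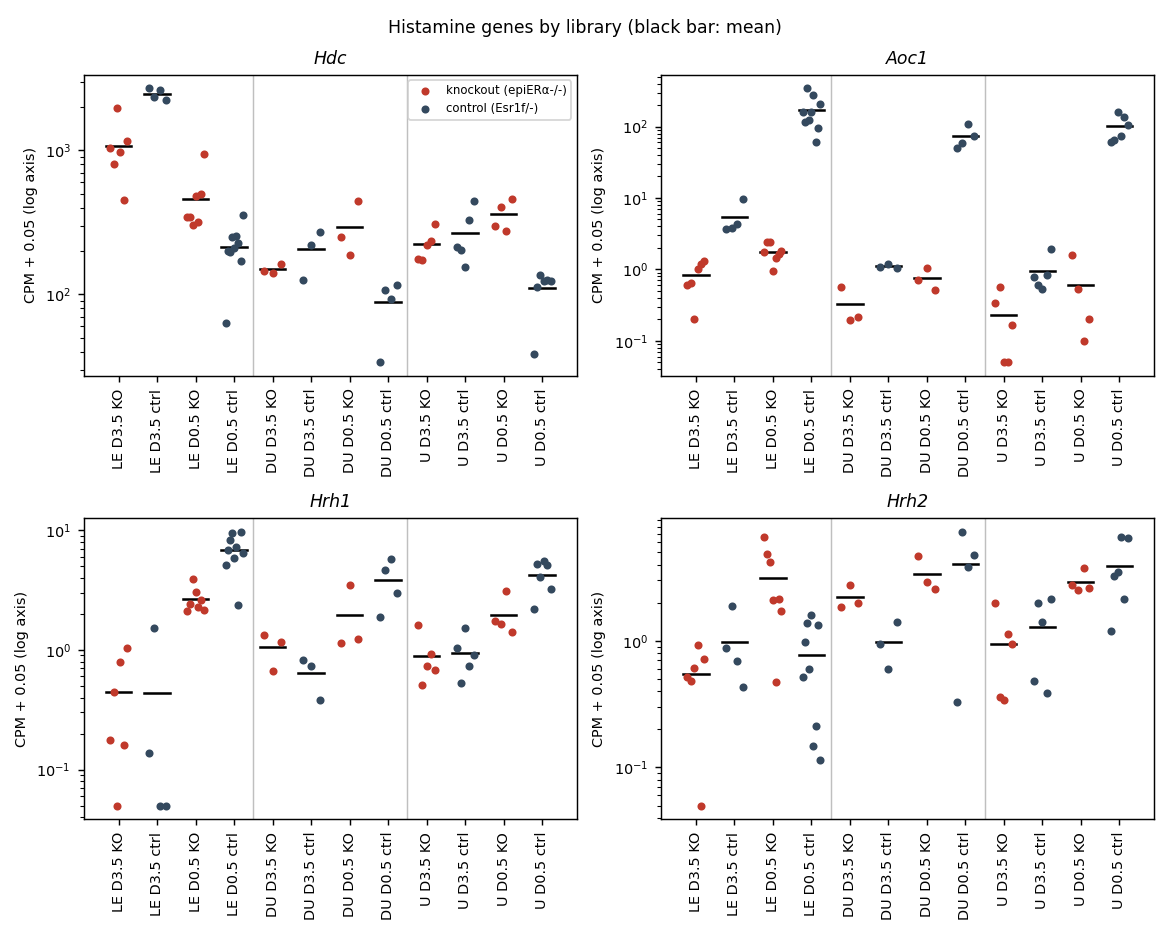
CPM + 0.05 on a log axis of Hdc, Aoc1, Hrh1 and Hrh2 in each of the 59 libraries (points), by tissue, day and genotype, with the group mean as a black bar and knockout in red, control in dark blue. Aoc1 forms a high cluster of control libraries at D0.5, and Hdc is highest in control LE at D3.5, at 2251 to 2704 CPM.

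Hrh1 and Hrh2, the receptor genes, were expressed at a few CPM or less. Hrh1 stood at 2.07, 2.39 and 3.85 CPM (lowest, median and highest) in knockout LE at D0.5 and at 2.33, 6.75 and 9.74 CPM in control. The ranges overlapped and the difference did not pass with edgeR (log2 -1.38 ± 0.60, adjusted p = 0.101), though it did with limma voom (log2 -1.32, adjusted p = 0.00307), with limma on TPM and with a fit of only these groups. In U at D0.5 Hrh1 was also not called (log2 -1.12, adjusted p = 0.116), and DESeq2 called it (adjusted p = 0.0325).
In LE at D3.5 control library 14 alone held 1.47 CPM of Hrh1, the other 3 control libraries 0.0872, 0 and 0 CPM, and the knockout libraries 0 to 0.982 CPM. With that library the log2 fold change was -0.01, and without it 3.38 (adjusted p = 0.0258).

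Hrh2 was higher in knockout LE at D0.5, at 0.422, 2.10 and 6.61 CPM (lowest, median and highest) against 0.0634, 0.554 and 1.56 CPM in control (log2 2.14 ± 0.62, adjusted p = 0.0119). The ranges overlapped. It was not called in the tissues that hold all uterine cells. Its D0.5 values were 4.67, 2.85 and 2.53 CPM in knockout and 0.280, 7.26, 3.78 and 4.69 CPM in control DU (log2 -0.24), and in U the log2 fold change was -0.43. The difference between LE and the other tissues was not tested. The neutrophil and macrophage markers given above moved with Hrh2 in LE. In DU and U at D0.5, where Hrh2 was not called, 5 of 8 tested neutrophil markers and 0 of 8 macrophage markers were higher in knockout. The part of these cells in the Hrh2 values was not tested. At D3.5 Hrh2 did not pass in LE (log2 -0.88), DU (1.18) or U (-0.47).

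Arg1, the cytosolic arginase, fell with Aoc1 in knockout tissue at D0.5. In LE it stood at 11.2, 42.3 and 77.4 CPM (lowest, median and highest of 7) in knockout, against 450, 835 and 1481 CPM of 9 control libraries. The groups were far apart, with the knockout mean at 4.83% of the control mean (log2 -4.37 ± 0.35, adjusted p = 1.65e-09). In DU it was at 11.5, 19.3 and 6.93 CPM in knockout and 159, 443, 418 and 255 CPM in control libraries (log2 -4.66 ± 0.47, adjusted p = 0.000212). In U it was at 16.9, 7.47, 15.9 and 4.33 CPM in knockout and 206, 389 and 664 CPM (lowest, median and highest of 6) in control libraries (log2 -5.23 ± 0.60, adjusted p = 3.72e-05). No knockout library overlapped the controls in any of the 3 tissues.
At D3.5 Arg1 was at 1.34 to 5.19 CPM in knockout and 1.06 to 1.92 CPM in control LE, which overlapped (log2 0.89, adjusted p = 0.188). In U at D3.5 it stood at 0.662, 1.23, 6.75, 2.92 and 1.46 CPM in knockout and 0.946, 0.475, 0.420, 0.847 and 0.823 CPM in control libraries. The difference did not pass with edgeR (log2 1.89, adjusted p = 0.461) and did with DESeq2 (log2 1.87, adjusted p = 0.0457).

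Arg2, the mitochondrial arginase, was higher in knockout LE at D0.5, opposite to Arg1. It stood at 26.1, 35.1 and 51.5 CPM (lowest, median and highest) in knockout and at 3.99, 10.5 and 46.5 CPM in control. Control library 1 at 46.5 CPM lay among the knockouts, and the next control was at 19.8 CPM. The log2 fold change was 1.37 ± 0.36 (adjusted p = 0.00546). In U at D0.5 it was at 31.3, 32.9, 24.6 and 31.7 CPM in knockout and 7.83, 13.7 and 21.8 CPM (lowest, median and highest of 6) in control libraries, without overlap (log2 1.09 ± 0.30, adjusted p = 0.0384). This call was lost in 8 of the 10 fits that left out 1 of these libraries (adjusted p = 0.0532 to 0.108), namely without control 2, 3, 5 or 8 or any of knockout 21, 25, 26 and 27. In DU at D0.5 the values were 30.0, 20.8 and 33.8 CPM in knockout and 20.8, 18.8, 9.30 and 12.7 CPM in control libraries. They did not overlap, though the nearest values both round to 20.8 CPM, and were not called (log2 0.87, adjusted p = 0.0619), and were called with DESeq2 and with limma voom (adjusted p = 0.0259 and 0.0253) and without control 1 or knockout 26 (adjusted p = 0.0275 to 0.0421).
In DU at D3.5 Arg2 was lower in knockout, at 4.12, 3.39 and 3.65 CPM against 8.36, 11.2 and 13.2 CPM in control libraries (log2 -1.56 ± 0.30, adjusted p = 0.0352). This call was lost in 5 of the 6 fits that left out 1 library, all but that without control 11 (adjusted p = 0.108 to 0.188). In U at D3.5 the log2 fold change was -0.71 and in LE 0.53, neither of which passed. Per length, as mean TPM, the arginases in LE at D0.5 stood at 39.0 TPM of Arg1 and 33.4 TPM of Arg2 in knockout, against 736 TPM of Arg1 and 12.4 TPM of Arg2 in control.

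**Figure D3:**
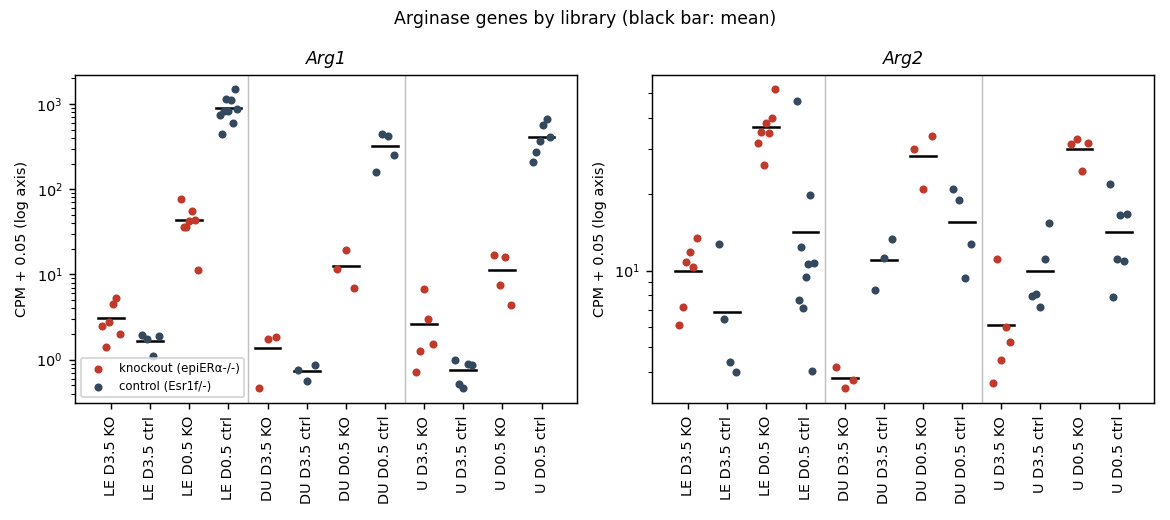
CPM + 0.05 on a log axis of Arg1 and Arg2 in each library (points), by tissue, day and genotype, with the group mean as a black bar and knockout in red, control in dark blue. At D0.5 the Arg1 libraries of knockouts reach at most 77.4 CPM and those of controls at least 159 CPM, while Arg2 is higher in knockout.

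Sat1, the polyamine acetyltransferase, was lower in knockout at D0.5 in the 2 uterine tissues. In U it stood at 240, 237, 197 and 200 CPM in knockout, against 275, 395 and 479 CPM (lowest, median and highest of 6) in control libraries, without overlap (log2 -0.82 ± 0.21, adjusted p = 0.0265). The call was lost without control 8 or knockout 25, 26 or 27 (adjusted p = 0.0519 to 0.0876). In DU it was at 166, 191 and 218 CPM in knockout and 352, 361, 303 and 286 CPM in control libraries, also without overlap (log2 -0.76 ± 0.14, adjusted p = 0.00707). The epithelial marker sums given with Aoc1 were lower in knockout DU and U at D0.5 too. Of the stroma and smooth muscle markers, 3 of 7 and 3 of 6 were higher in knockout DU, and 1 of 7 and 0 of 6 in U. The part of these cell shares in the Sat1 result was not tested. In LE the values were 322, 465 and 518 CPM (lowest, median and highest) in knockout and 379, 710 and 761 CPM in control. These overlapped and did not pass with edgeR (log2 -0.57, adjusted p = 0.0652), but passed with limma voom (log2 -0.62, adjusted p = 0.0139), with a fit of only these groups (-0.52, adjusted p = 0.0144) and without control 2 (-0.64, adjusted p = 0.0321). Sat1 did not pass in any tissue at D3.5, with log2 fold changes of 0.11 in LE, -0.04 in DU and -0.22 in U. Within the knockout LE libraries at D3.5 it was at 127, 191 and 116 CPM in mice 35, 36 and 37, and at 62.9, 56.5 and 64.7 CPM in mice 31, 32 and 34, against 60.2 to 137 CPM in control. Without mice 35, 36 and 37 the log2 fold change was -0.61, which did not pass (adjusted p = 0.155).

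Odc1, Srm and Sms, the synthetic enzymes, were not called with edgeR in knockout against control in any of the 6 comparisons. Odc1 averaged 64.4 ± 23.1 CPM in knockout and 108 ± 51.5 CPM in control LE at D3.5 (SD, n = 6 and 4; log2 -0.75, edgeR adjusted p = 0.108), and passed without mice 35, 36 and 37 (log2 -1.25, adjusted p = 0.0338) or without control 16 (-0.96, adjusted p = 0.0488). Those 3 mice held 81.8, 88.1 and 83.0 CPM of Odc1 and the other 3 knockouts 55.2, 46.1 and 32.3 CPM. In LE at D0.5 its log2 fold change of 0.51 did not pass (adjusted p = 0.127), but did without knockout 21 (0.65, adjusted p = 0.0306) and with limma voom (0.55, adjusted p = 0.0320). Srm averaged 51.6 ± 26.3 CPM in knockout and 27.6 ± 10.5 CPM in control LE at D0.5 (SD, n = 7 and 9; log2 0.90, edgeR adjusted p = 0.0592). It passed with DESeq2 (log2 0.95, adjusted p = 0.0278), with limma voom (0.86, adjusted p = 0.0285) and without any 1 of control 1, control 8, knockout 21 and knockout 22 (adjusted p = 0.00730 to 0.0479). Sms had log2 fold changes of 0.38 in LE at D0.5 and 0.31 in U at D3.5, and values nearer 0 in the other 4 comparisons.

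**Figure D4:**
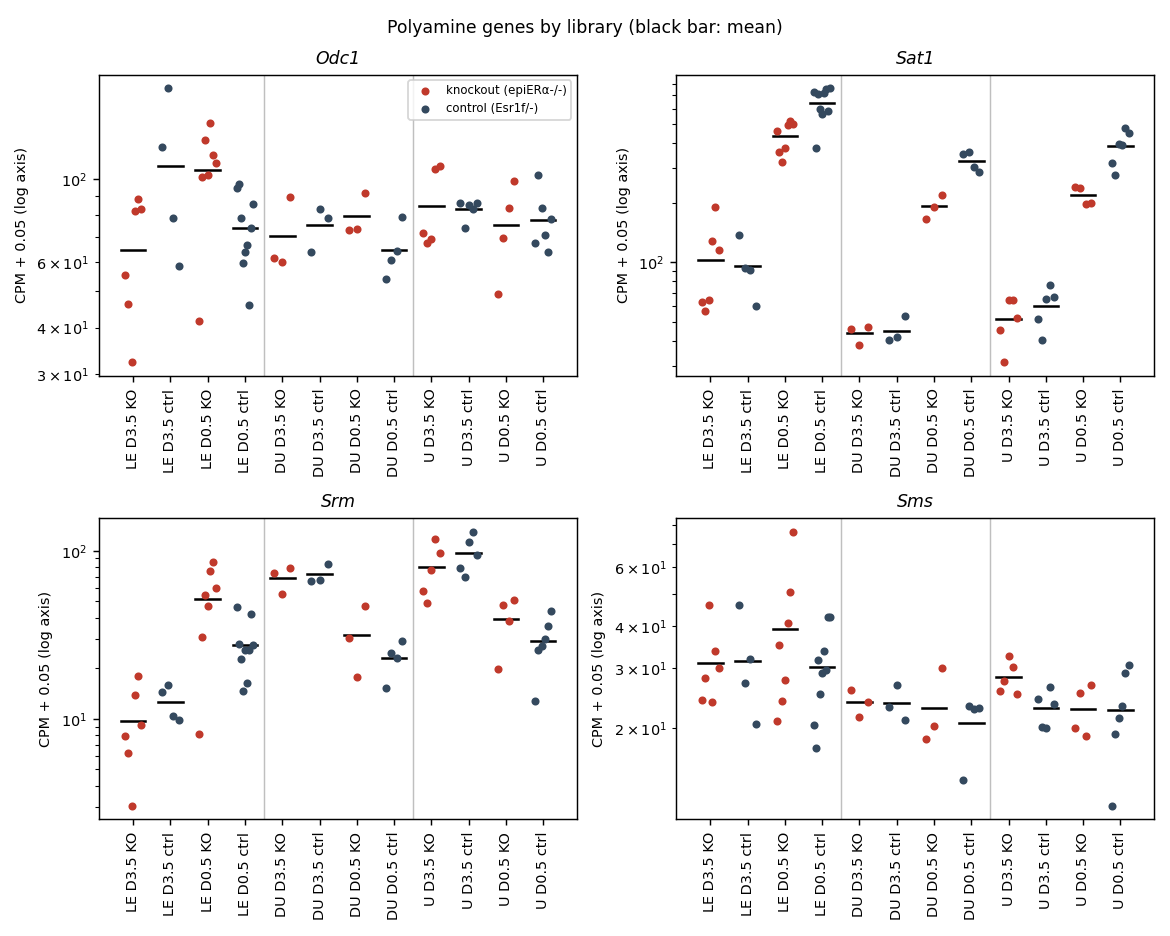
CPM + 0.05 on a log axis of Odc1, Sat1, Srm and Sms in each library (points), by tissue, day and genotype, with the group mean as a black bar and knockout in red, control in dark blue. Sat1 is lower at D3.5 in each tissue and genotype, and Srm is lower at D3.5 in LE but higher in DU and U.

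D3.5 was compared with D0.5 within each genotype. In knockout LE, 9 of the 10 genes were called, where 41.6% of all genes tested were, with only Hdc higher at D3.5 (21.4% of all) and 8 lower (20.2% of all). In control LE, 6 were called (44% of all), with Hdc higher (21.2%) and 5 lower (22.8%). In knockout DU, 4 were called (30.2% of all), 1 higher (12.9%) and 3 lower (17.3%), and in control DU 7 (34.4% of all), 2 higher (15.9%) and 5 lower (18.5%). In knockout U, 6 were called (25.5% of all), 1 higher (10.9%) and 5 lower (14.6%), and in control U 7 (34.2% of all), 2 higher (16.2%) and 5 lower (18%). The median log2 change of the 10 genes was -1.98 in knockout and -1.09 in control LE, -0.95 and -1.27 in DU, and -1.41 and -1.07 in U, beside all-gene medians of 0.04 or nearer 0. Neutrophil markers were lower at D3.5 in each tissue, with 8 of 8 tested called in knockout and 5 of 8 in control LE, and 7 or 8 of 8 in DU and U. Their sum was 78.2 to 89.2 CPM at D3.5 and 1240 to 3045 CPM at D0.5 in knockout DU, and 37.7 to 53.3 against 80.9 to 639 CPM in control DU. In U it was 52.9 to 127 against 1586 to 3056 CPM in knockout and 37.0 to 91.1 against 75.0 to 960 CPM in control. The epithelial marker sum was 3290 to 5625 CPM at D3.5 and 2838 to 5066 CPM at D0.5 in knockout LE, and 3619 to 4430 against 6223 to 12646 CPM in control LE. In DU it was 482 to 580 against 1546 to 1677 CPM in knockout (5 of 7 markers lower) and 344 to 583 against 1958 to 4380 CPM in control (7 of 7 lower). In U it was 414 to 902 against 1325 to 1804 CPM in knockout and 433 to 845 against 2188 to 7253 CPM in control (4 of 7 and 7 of 7 lower). The part of these cells in the day changes was not tested.

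Hdc rose with day in LE, by more in control than in knockout. It averaged 1067 ± 509 CPM at D3.5 and 464 ± 227 CPM at D0.5 in knockout LE (SD, n = 6 and 7; log2 1.20 ± 0.32, edgeR adjusted p = 0.00314). In control LE it averaged 2485 ± 216 CPM at D3.5 and 215 ± 78.4 CPM at D0.5 (SD, n = 4 and 9; 11.5-fold, log2 3.53 ± 0.33, edgeR adjusted p = 1.81e-09). Of the 6 mast cell markers tested, 1 was higher at D3.5 in knockout and 4 in control LE. The mast cell sum without Kit was 0.509 to 2.72 CPM at D3.5 and 0.477 to 2.65 CPM at D0.5 in knockout, and 0.921 to 10.6 against 0.103 to 3.35 CPM in control. With Kit it was 31.5 to 131 against 10.8 to 35.9 CPM in knockout, and 39.0 to 178 against 7.45 to 32.3 CPM in control. The part of mast cells in the day change of Hdc was not tested. In DU and U it rose with day in control (log2 1.24, adjusted p = 0.0216, and 1.29, adjusted p = 0.00154), while in knockout the log2 changes were -0.98 and -0.70 and did not pass (adjusted p = 0.0869 and 0.122). They passed in DU with DESeq2 (adjusted p = 0.0391) and limma voom (adjusted p = 0.0418), and in both when only the groups compared were fitted (adjusted p = 0.0336 and 0.0348). The DU control call was lost without control 14 or control 16 of D3.5 (adjusted p = 0.0624 to 0.102).

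Aoc1 and Arg1 fell with day by more than any other of the 10 genes in control tissue. Arg1 averaged 1.62 ± 0.387 CPM at D3.5 and 892 ± 311 CPM at D0.5 in control LE (SD, n = 4 and 9; log2 -9.10 ± 0.58, edgeR adjusted p = 2.19e-12). Its log2 change was -8.84 in control DU and -9.19 in control U. In knockout the fall of Arg1 was smaller, at -3.85 in LE, -3.24 in DU and -2.07 in U, all called.
Aoc1 averaged 5.34 ± 2.93 CPM at D3.5 and 171 ± 91.4 CPM at D0.5 in control LE (SD, n = 4 and 9; log2 -5.02 ± 0.50, edgeR adjusted p = 6.01e-09), with -6.12 in control DU and -6.77 in control U. In knockout LE the log2 change was -1.15 ± 0.42 (adjusted p = 0.0279). That call was lost without knockout 22, 23, 31, 32 or 34 (adjusted p = 0.0513 to 0.0661), with limma voom (adjusted p = 0.304) and with limma on TPM (adjusted p = 0.466), and without mice 35, 36 and 37 the change was -1.97 (adjusted p = 0.00836). In knockout DU and U it did not pass (log2 -1.40 and -1.63), but in DU it passed with DESeq2 (adjusted p = 0.0232) and without knockout 32 (-2.15, adjusted p = 0.0192).

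Sat1 fell with day in every tissue and genotype. It averaged 103 ± 52.4 CPM at D3.5 and 435 ± 78.8 CPM at D0.5 in knockout LE (SD, n = 6 and 7), and 95.7 ± 31.6 against 644 ± 125 CPM in control LE (SD, n = 4 and 9). The log2 changes were -2.08 and -2.75 in LE, -2.13 and -2.85 in DU and -2.08 and -2.68 in U, knockout before control in each pair, with edgeR adjusted p of 2.78e-07 or less in LE.
Arg2 fell with day in knockout, by 1.89 in LE, 2.92 in DU and 2.32 in U on the log2 scale. In control its log2 changes of -1.05, -0.49 and -0.52 did not pass (adjusted p = 0.0617, 0.185 and 0.189), though that in LE passed with DESeq2 (adjusted p = 0.0339) and without control 2, 4, 8 or 11 (adjusted p = 0.0173 to 0.0452), and that in U with limma voom (adjusted p = 0.0305).

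Srm changed in opposite directions with day in epithelium and in uterus. In LE it averaged 9.68 ± 5.41 CPM at D3.5 and 51.6 ± 26.3 CPM at D0.5 in knockout (SD, n = 6 and 7; log2 -2.42 ± 0.41, edgeR adjusted p = 3.43e-05), and 12.6 ± 2.97 against 27.6 ± 10.5 CPM in control (SD, n = 4 and 9; log2 -1.13 ± 0.44, edgeR adjusted p = 0.0409). The control call was lost in 6 of 13 fits that left out 1 library (control 1, 8, 11, 14, 15 or 16; adjusted p = 0.0529 to 0.106) and with limma voom (adjusted p = 0.263).
In U it averaged 79.5 ± 27.8 CPM at D3.5 and 39.1 ± 13.9 CPM at D0.5 in knockout (SD, n = 5 and 4; log2 1.02 ± 0.32, edgeR adjusted p = 0.0244), and 97.3 ± 24.6 against 29.2 ± 10.5 CPM in control (SD, n = 5 and 6; log2 1.73 ± 0.29, edgeR adjusted p = 8.89e-05). The knockout call in U was lost without knockout 21, 26, 35 or 37 (adjusted p = 0.0549 to 0.0954). In DU the log2 changes were 1.13 in knockout and 1.67 in control, both called. The difference between LE and the uterine tissues was not tested. Of 7 stroma markers, 4 were higher and 1 lower at D3.5 in control DU, and 3 and 1 in control U. In knockout 0 were higher and 2 lower in DU, and 1 and 1 in U. Endothelial markers (Pecam1, Cdh5 and Kdr) were higher in 3 of 3 cases in control and 2 of 3 in knockout, in DU and U alike. In LE 2 of 7 and 2 of 3 were higher in control and 0 in knockout. The part of these cells in the Srm changes was not tested.

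Hrh1 was called lower with day in 5 of the 6 comparisons and Hrh2 in 4. Hrh1 was lower at D3.5 in knockout LE (log2 -2.70), control LE (-4.06), control DU (-2.69), knockout U (-1.19) and control U (-2.23), and its value of -0.91 in knockout DU did not pass (adjusted p = 0.254). Hrh2 was lower at D3.5 in knockout LE (log2 -2.62, adjusted p = 0.00504), in knockout U (-1.66, adjusted p = 0.0466), in control U (-1.63, adjusted p = 0.0276) and in control DU (-2.05, adjusted p = 0.0471), and its values of 0.40 in control LE and -0.63 in knockout DU did not pass (adjusted p = 0.693 and 0.558). Without library 33 the knockout U calls of both receptors were lost (Hrh1 -1.07, adjusted p = 0.0703, and Hrh2 -1.47, adjusted p = 0.0922). That of Hrh1 was also lost without knockout 26, 34, 35 or 37 and with only the groups compared (adjusted p = 0.0800), and that of Hrh2 without any 1 of the other libraries but knockout 32 and without the filter on low counts (adjusted p = 0.0562). The DU call of Hrh2 was lost in 6 of 7 fits that left out 1 library (all but that without control 1; adjusted p = 0.0698 to 0.157), with limma voom (adjusted p = 0.0779), and with limma on TPM and only the groups compared (adjusted p = 0.104 in both). The call of Hrh2 in control U was lost without control 5, 9, 11 or 14 (adjusted p = 0.0630 to 0.0691). Odc1 fell with day in knockout LE (log2 -0.71 ± 0.27, adjusted p = 0.0342), a call that was lost with limma on TPM (adjusted p = 0.453) and in 7 of 13 fits that left out 1 library (knockout 23, 25, 26, 27, 31, 32 or 34; adjusted p = 0.0503 to 0.0878). Without mice 35, 36 and 37 it was -1.27 (adjusted p = 0.00462). Sms was not called in any of the 6 day comparisons, with log2 changes from -0.34 to 0.31.

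**Figure D5:**
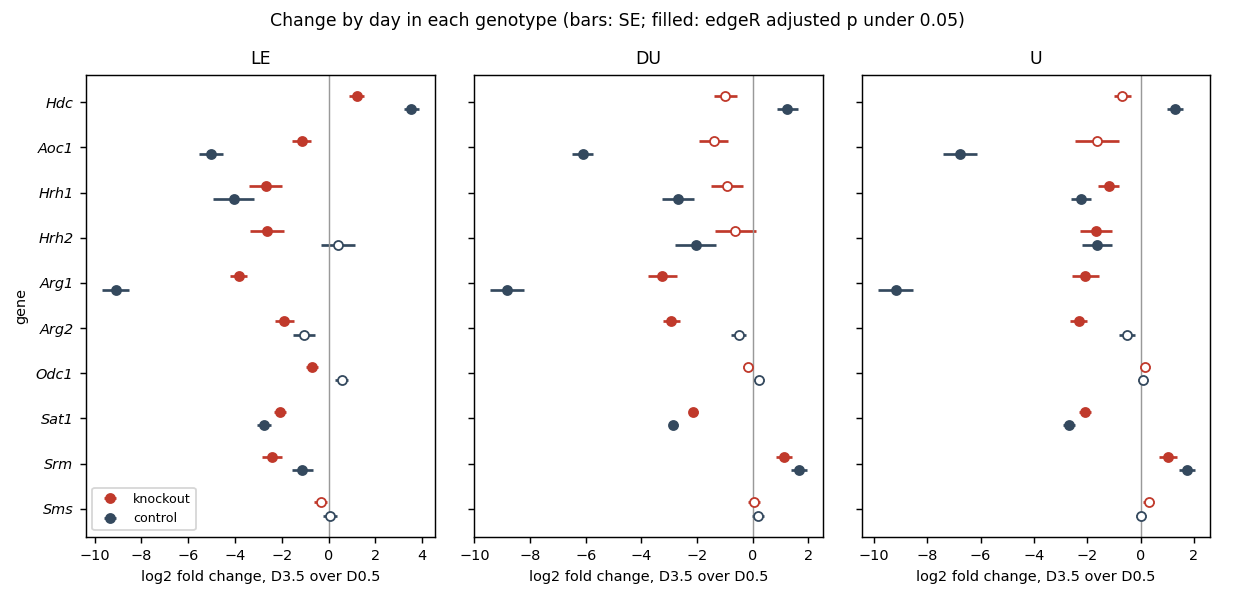
Log2 fold change of D3.5 over D0.5 for the 10 genes in LE, DU and U, in knockout (red) and control (dark blue); bars are the SE and filled points have an edgeR adjusted p under 0.05. Arg1 in control lies near -9 in each panel (-9.10, -8.84 and -9.19), and Srm lies left of 0 in LE and right of 0 in DU and U.

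Whether the log2 effect of the knockout differed between days was tested as D3.5 minus D0.5. In LE 5 of the 10 genes were called (16.5% of all genes tested), 2 positive (9.52%) and 3 negative (6.99%). In DU 3 were called (1.88% of all), 2 positive (0.945%) and 1 negative (0.932%), and in U 4 (1.43% of all), 2 positive (0.943%) and 2 negative (0.487%). Arg1 was called in each tissue, at log2 differences of 5.25 ± 0.56 in LE (adjusted p = 4.26e-07), 5.59 ± 0.77 in DU (adjusted p = 0.00534) and 7.11 ± 0.79 in U (adjusted p = 6.61e-05). Aoc1 was also called in each, at 3.87 ± 0.60 (adjusted p = 5.54e-05), 4.72 ± 0.70 (adjusted p = 0.00820) and 5.14 ± 1.15 (adjusted p = 0.0266). For both genes the knockout value was the more negative at D0.5. The call of Aoc1 was lost with limma voom in DU (adjusted p = 0.0609) and U (adjusted p = 0.0854), and in DU without knockout 32 (3.96, adjusted p = 0.0507).
Hdc was called in LE (-2.33 ± 0.46, adjusted p = 0.000806) and in U (-1.98 ± 0.43, adjusted p = 0.0223), and in both it was higher in knockout at D0.5 and not at D3.5. In DU it was -2.22 ± 0.56 and missed the threshold (adjusted p = 0.0621), which it passed with DESeq2 (adjusted p = 0.00240), with limma voom (adjusted p = 0.0188) and without control 1 or knockout 26 (adjusted p = 0.0240 to 0.0371).
Arg2 was called in DU (-2.42 ± 0.40, adjusted p = 0.0109) and in U (-1.81 ± 0.43, adjusted p = 0.0374), not in LE (-0.84, adjusted p = 0.364), where it passed without control 1 (-1.32, adjusted p = 0.0355). The U call of Arg2 was lost in 12 of 20 fits that left out 1 library (control 2, 3, 5, 8, 14 or 16 or knockout 25, 27, 32, 34, 35 or 37; adjusted p = 0.0503 to 0.0827). That of Hdc was lost without knockout 25, 27 or 32 (adjusted p = 0.0504 to 0.0559), and that of Aoc1 without these or without knockout 33 (4.39, adjusted p = 0.142) or 37. In LE Hrh2 (-3.02 ± 1.00, adjusted p = 0.0382) and Odc1 (-1.26 ± 0.39, adjusted p = 0.0246) were called as well. The Hrh2 call was lost in 8 of 26 fits that left out 1 library (control 4, 11 or 14 or knockout 21, 22, 23, 31 or 32; adjusted p = 0.0510 to 0.123), with limma voom (adjusted p = 0.0677) and without mice 35, 36 and 37 (adjusted p = 0.0741), and that of Odc1 without control 11 or control 14 (adjusted p = 0.0507 to 0.108) and with limma on TPM (adjusted p = 0.142). Without mice 35, 36 and 37 Srm was called too (-2.05, adjusted p = 0.0337).

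LE was set against U as the mean over the 4 groups of genotype and day, with tissue and RNA isolation batch not separable. Of the 10 genes 8 were called, where 65.8% of all genes tested were, 31% higher and 34.7% lower. Aoc1 (log2 2.12 ± 0.28), Hdc (2.01 ± 0.17), Arg1 (1.42 ± 0.23), Sat1 (1.16 ± 0.12), Sms (0.76 ± 0.13), Arg2 (0.43 ± 0.19) and Odc1 (0.42 ± 0.13) were higher in LE, and Srm was lower (-1.11 ± 0.19). The Arg2 call (adjusted p = 0.0484) was lost in 15 of 46 fits that left out 1 library (in LE control 1, 7, 11 or 14 or knockout 22, 24, 25, 26, 27 or 34, in U control 8 or 13 or knockout 26, 32 or 34; adjusted p = 0.0501 to 0.156), and with limma on TPM those of Arg2 and Odc1 were lost (adjusted p = 0.646 and 0.485). Epithelial markers were higher in LE in 7 of 7 cases, and macrophage markers lower in 8 of 8.
DU against U, in which digestion and RNA isolation batch cannot be told apart, gave no call with edgeR, in the 10 genes or in any of 16782 genes (0%), where 3 of the 10 and 4055 of all had an unadjusted p under 0.05. DESeq2 called none of the 10 (59 of all genes) and limma voom 1, Sat1 (3498 of all). With the mouse as a block, over the 13 mice with both tissues, 7082 of 16605 genes were called (42.6%), 3851 of them lower (23.2%), and 5 of the 10 were lower in DU: Hdc (log2 -0.49, adjusted p = 0.000678), Srm (-0.44), Arg1 (-0.43), Sat1 (-0.38) and Odc1 (-0.18).

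Levels were compared between genes on the authors' TPM, which is per length. Over the 12 groups the ratio of the highest to the lowest group mean was largest for Arg1 (1099) and Aoc1 (567). Arg1 was highest in control LE at D0.5 (736 TPM) and lowest in control U at D3.5 (0.670 TPM), and Aoc1 was highest in control LE at D0.5 (72.9 TPM) and lowest in knockout U at D3.5 (0.129 TPM). Sat1 had a mean of at least 63.5 TPM in each group, with 732 TPM in control LE at D0.5 and 519 TPM in knockout LE at D0.5. Hdc was highest in control LE at D3.5 (1304 TPM), followed by knockout LE at D3.5 (727 TPM) and knockout LE at D0.5 (227 TPM), and the steps between these exceeded the larger SD of each pair.
Of the 11 neighbouring pairs in the order of Hdc, 8 did not differ beyond their spread. For Arg1 it was 7, for Aoc1 and Sat1 8, for Hrh1, Arg2 and Srm 9, and for Hrh2 and Sms 10. Odc1 had the flattest order, from 62.3 TPM in control LE at D3.5 to 38.7 TPM in control LE at D0.5, and none of its 11 neighbouring pairs differed beyond the larger SD. Srm ran from 104 TPM in control U at D3.5 to 13.0 TPM in control LE at D3.5. Hrh1 and Hrh2 stayed at 2.64 TPM or less in each group mean.

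The genes whose log2(TPM + 1) followed each member most closely were listed by Pearson correlation over the 59 libraries, among 14561 genes. The libraries share tissues, days and mice, so the values describe these libraries only. Arg1 was followed by genes that include Hgfac (r = 0.967) and Sprr2a3 (0.966), and Aoc1 by Alpl (0.967), Prxl2a (0.954) and Prss32 (0.951). Sat1 was followed by Tmprss4 (r = 0.972), Ttc9 (0.970) and Urah (0.967), and Hdc by Them5 (0.888), Ptger2 (0.878) and Slc1a1 (0.872). Hrh2 was followed by Hk3 (r = 0.826), Tlr13 (0.818) and Klra2 (0.811), and Srm by C1qbp (0.915), Rrp15 (0.905) and Gnl3 (0.887). Arg2 was followed by Elapor1 (r = 0.853), Rdh12 (0.809) and Il4ra (0.805), and Hrh1 most closely by Ccdc88b (0.856). For Odc1 and Sms the closest genes reached only 0.682 (Ube2e1) and 0.650 (Nomo1).

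A further 43 genes of the same pathways were listed by textbook role, of which 38 to 40 were tested. In LE at D0.5 edgeR called 4 of 38 in the upward and 2 in the downward direction for knockout against control (23.6% of all genes were called), and at D3.5 it called 4 and 1 (13.5% of all). Without mice 35, 36 and 37 the D3.5 calls were 1 higher and 2 lower (642 and 489 over all genes). The split at D3.5 depended on the tool, in the list and over all genes. Under limma voom 1 was higher and 4 lower, with 701 and 842 over all genes. Under limma on TPM 6 were higher and 0 lower, with 3546 and 387 over all genes. In DU 3 of 39 were higher and 2 lower at D0.5 (8.06% of all genes called), and in U 0 and 2 (4.98% of all). At D3.5 edgeR called none in DU and none in U (0.574% and 0.0185% of all genes called). Its unadjusted p was under 0.05 for 3 and 0 of 39, and for 1319 of 16194 and 682 of 16232 over all genes. DESeq2 then called 1 in DU and 0 in U (244 and 78 over all genes), and limma voom 1 and 4 (345 and 1439 over all genes). The median log2 fold change of the list was 0.24 in LE at D0.5 and -0.13 in LE at D3.5, against -0.01 over all genes tested on each day.
Paox, which oxidises acetylated polyamines made by Sat1, was lower in knockout at D0.5 in the 3 tissues, at 82.0 ± 19.9 CPM against 240 ± 46.2 CPM in LE (SD, n = 7 and 9; log2 -1.55 ± 0.20, edgeR adjusted p = 2.02e-06), with -1.33 in DU and -1.20 in U. Ass1, argininosuccinate synthase of arginine synthesis, was lower as well, at 34.8 ± 6.03 against 103 ± 29.0 CPM in LE (log2 -1.57 ± 0.36, edgeR adjusted p = 0.00169), with -1.72 in DU and -1.71 in U. At D3.5 both were higher in knockout LE, Paox at 50.1 against 30.2 CPM (log2 0.73, adjusted p = 0.0499) and Ass1 at 7.34 against 2.72 CPM (1.44, adjusted p = 0.0478). Both calls were lost without mice 35, 36 and 37 (Paox 0.16, adjusted p = 0.759, and Ass1 0.30, adjusted p = 0.779), and in 7 and 6 of the 10 fits that left out 1 library. With the fit without these mice counted in, each was lost in 4 of 7 other settings.
Aldh7a1, an aldehyde dehydrogenase listed with histamine breakdown, was higher in knockout at D0.5 in LE (log2 0.68) and DU (0.72). Nos1, a nitric oxide synthase that uses arginine, was higher in knockout LE at both D3.5 (log2 2.52 ± 0.78, adjusted p = 0.0295) and D0.5 (1.60 ± 0.55, adjusted p = 0.0357), and so was Slc18b1, a vesicular polyamine transporter (log2 1.03 at D3.5 and 0.55 at D0.5). Without mice 35, 36 and 37 the D3.5 call of Nos1 was lost (log2 0.52, adjusted p = 0.746) and that of Slc18b1 was not (0.94, adjusted p = 0.0323). The Nos1 calls were also lost in 4 of 10 fits that left out 1 library at D3.5 and in 9 of 16 at D0.5. Of the other settings, 3 of 6 lost the D3.5 call and 1 of 5 the D0.5 call. Aldh18a1, which leads from glutamate towards proline and ornithine, was lower in knockout LE at D3.5, at 39.6 ± 8.71 against 88.6 ± 20.3 CPM (SD, n = 6 and 4; log2 -1.16 ± 0.22, edgeR adjusted p = 0.000641; -1.35 without mice 35, 36 and 37). Gatm, which starts creatine synthesis from arginine, was higher in knockout LE at D0.5 (log2 1.29), as were Maob, a monoamine oxidase, in DU (0.98) and Oaz2, an antizyme that restrains Odc1, in DU (0.46). The call of Gatm was lost in 6 of 16 fits that left out 1 library and in 1 of 6 other settings. That of Oaz2 was lost in 4 of 7 such fits and in 4 of 6 other settings. Those of Maob and Aldh7a1 in DU were each lost in 1 of 6 other settings, and that of Aldh18a1 in 1 of 7.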

How the data were processed

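The authors deposited estimated counts by gene (mostly not whole) and TPM values for 59 libraries. The submitters' processing notes name kallisto 0.46.1 and GRCm39; the sources used here do not say how transcripts were summed to genes. RNA was isolated as 1 batch per tissue, per the labels' protocols. The library kit is not stated to keep strand, so overlapping genes cannot be told apart.

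Estimated counts were rounded, filtered with filterByExpr (minimum count 10, minimum total 15) and scaled by TMM, and groups were compared by edgeR 4.0.16 (R 4.3.3, quasi-likelihood F test), all 4 groups of a tissue in 1 fit (15601 genes in LE, 16194 in DU, 16232 in U), with adjustment by Benjamini and Hochberg over all genes tested. LE with U (16665 genes) and DU with U (16782 genes) were fitted jointly. Each SE was derived by dividing the absolute log2 fold change by the root of F. Scripts were tested on simulated data. Other settings were median-of-ratios size factors, no filter, DESeq2 1.42.0, limma 3.58.1 as weighted voom, limma applied to log2(TPM + 1) where mean TPM reached 1, fits of only the compared groups, leaving out each library in turn, the mouse as a block, and LE without mice 35, 36 and 37.

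All 10 members are named. Pathway genes were named if called in a genotype comparison, at most 12, and up to 3 of the most correlated genes were listed for each member, of which 1 is not reported here. The members and lists were chosen with earlier results of these data known. Same-group libraries differed by more than counting noise in each of 134 pairs (lowest chi-square per degree of freedom 9.76). Libraries with the same mouse number come from the same animal: deviations from group means correlated at a median of 0.330 over 17 mice for LE with U (lowest -0.217) and 0.399 over 13 mice for DU with U (lowest 0.127). Depth covers counting error only.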

Additional observations from a re-analysis of the deposited data

Results flagged for a closer look

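In 9 of 90 combinations of gene and group (10 genes in the same 9 groups of 4 to 10 libraries, so not independent), 1 library lay far from the others of its group, beyond a gap that chance gives in about 1 in 20 groups. Control mouse 1 at D0.5 was low for Hdc in U (38.9 CPM, next 113 CPM) and for Sms in DU (14.0 CPM, next 22.6 CPM), and high for Arg2 in LE (46.5 CPM, next 19.8 CPM). Control mouse 16 at D3.5 was high for Aoc1 in LE (9.71 CPM, next 4.28 CPM) and in U (1.89 CPM, next 0.791 CPM). Knockout mouse 27 at D0.5 was high for Hdc in LE (946 CPM, next 499 CPM), and knockout mouse 21 at D0.5 was low for Odc1 in LE (41.7 CPM, next 101 CPM). Control mouse 14 at D3.5 was high for Hrh1 in LE (1.47 CPM, next 0.0872 CPM), and control mouse 12 at D3.5 was low for Odc1 in U (73.8 CPM, next 82.8 CPM).

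The knockout effect differed between D3.5 and D0.5 in the test of that difference for 5 genes in LE, by log2 values of -2.33 for Hdc, 3.87 for Aoc1, -3.02 for Hrh2, 5.25 for Arg1 and -1.26 for Odc1. In U it differed by -1.98 for Hdc, 5.14 for Aoc1, 7.11 for Arg1 and -1.81 for Arg2, and in DU by 4.72 for Aoc1, 5.59 for Arg1 and -2.42 for Arg2.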

How the results depend on the processing

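Over the alternative settings 938 of 993 log2 values of single genes kept their side of the threshold without a called value reversing. Among these, 25 that were not called changed sign. Over the fits that left out 1 library 2424 of 2560 were kept in this way, and 57 of them, not called, changed sign. Both reversals were of Hrh1 without LE control 14 at D3.5, where log2 values over the fits that left out 1 library ran from -0.51 to 3.38 for knockout against control in LE at D3.5, and from -0.81 (adjusted p = 0.0166) to 0.16 for LE against U. The cause of these and of the following changes was not tested.

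Counts of the 10 genes called moved by over 1.5 times in some settings, given here beside the calls over all genes. With limma voom the count was 9 in LE at D0.5 (reported 5), with 5181 of all genes called (reported 3676). It was 1 in LE at D3.5 (reported 2), with 1543 of all (reported 2105). In DU against U it was 1 (reported 0), with 3498 of all (reported 0). With DESeq2 it was 1 in U at D3.5 (reported 0), with 78 of all (reported 3). In DU at D3.5 it was 2 (reported 1), with 244 of all (reported 93). For the DU difference between days it was 5 (reported 3), with 903 of all (reported 304). With the mouse as a block it was 5 in DU against U (reported 0), with 7082 of all genes called. The block changed no other call. Counts of pathway genes moved in LE at D0.5 with limma voom (10, reported 6). In LE at D3.5 they were 3 without the filter, 9 with DESeq2, 2 with only these groups and 3 without mice 35, 36 and 37 (reported 5). Over all genes the counts were then 2017, 2685, 1602 and 1131 (reported 2105). In U they were 4 with DESeq2 and 9 with limma voom at D0.5 (reported 2), and 4 with limma voom at D3.5 (reported 0). Over all genes the counts were then 1286 and 2257 (reported 809), and 1439 (reported 3). In DU they were 8 with DESeq2 and 3 with only these groups at D0.5 (reported 5), and 1 with each of DESeq2, limma voom and only these groups at D3.5 (reported 0). Over all genes the counts were then 2164 and 411 (reported 1306), and 244, 345 and 202 (reported 93).

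With 1 library left out, calls of the 10 genes ranged from 5 to 7 (LE D0.5), 1 to 3 (LE D3.5), 3 to 5 (U D0.5), 0 to 0 (U D3.5), 3 to 5 (DU D0.5) and 0 to 1 (DU D3.5) by genotype. By day they ranged from 7 to 9 and 5 to 7 (LE knockout and control), 3 to 6 and 6 to 7 (U), and 4 to 5 and 5 to 7 (DU), for the difference between days from 3 to 6 (LE), 1 to 4 (U) and 2 to 4 (DU), and from 7 to 8 for LE against U and 0 to 0 for DU against U. Pathway calls ranged from 4 to 7 (LE D0.5), 2 to 7 (LE D3.5), 2 to 6 (U D0.5) and 3 to 7 (DU D0.5), and were 0 in U and DU at D3.5. Calls over all genes are given for these fits only without library 33. They were then 112 by genotype in U at D3.5 (reported 3), 3926 by day in knockout U (reported 4139) and 294 for the U difference between days (reported 232). The ranges alone thus do not separate a change in these genes from one in the whole fit.

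On log2(TPM + 1) the median of all genes in LE at D3.5 shifted by 0.38, with 3546 higher and 387 lower in knockout (reported 1215 and 890). Hdc on that scale was at -0.92 and still called. Without library 33 edgeR called 112 genes in U at D3.5 (reported 3), none of the 10 among them. Where a library held 0 CPM, as for Aoc1 in U and Hrh1 in LE at D3.5, the gene was not detectable at its depth.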

Other observations

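Several values that stood apart belonged to the same mouse in more than 1 tissue, given here as values without a test. Control mouse 1 at D0.5 held 63.0, 33.8 and 38.9 CPM of Hdc in LE, DU and U, the lowest control of that day in each, and 46.5, 20.8 and 21.8 CPM of Arg2, the highest in each. Knockout mouse 27 at D0.5 held 946, 447 and 460 CPM of Hdc in LE, DU and U, the highest knockout of that day in each. Knockout mouse 21 at D0.5 held 41.7 CPM of Odc1 and 8.09 CPM of Srm in LE and 49.2 and 19.9 CPM in U, the lowest knockout of that day in both tissues.

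Other pathway genes were named after their values were seen. Nos2, the inducible nitric oxide synthase that competes with the arginases for arginine, fell with day in LE, to 0.535 CPM at D3.5 against 366 CPM at D0.5 in knockout and to 0.122 against 273 CPM in control (log2 -9.51 and -11.30, edgeR adjusted p = 3.79e-07 and 2.87e-06). Of 8 neutrophil markers tested in LE, 8 in knockout and 5 in control were lower at D3.5 too. Of 7 macrophage markers tested there, 3 and 4 were higher. The part of these cells in the Nos2 change was not tested. Smox, spermine oxidase, fell with Sat1 in LE, to 172 CPM at D3.5 against 666 CPM at D0.5 in knockout and to 201 against 550 CPM in control. Maob was lower in LE than in U (log2 -6.24, edgeR adjusted p = 1.04e-19) and rose with day in U, to 271 CPM at D3.5 against 30.7 CPM at D0.5 in knockout and to 290 against 22.4 CPM in control.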
